A study of Danio rerio with 6 samples.

Results

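The most fragmented scars in these fish were examined, those in which the alignment of a GFP read held 3 or more separate deletions and no insertion. Over 6 adult fish, 1334 distinct scars of this kind were kept out of 4273 kept scars of any kind, or 31.2%. A scar was kept in a fish when it reached at least 10 reads in at least 1 library, where a library is a barcode with at least 1000 reads. The members were therefore selected on the deletions called in the reads and on read number, so neither is a finding. At the edge of the selection, 89 cases of a scar in a fish had exactly 10 reads in their highest library, and 111 had 9 reads and fell outside.

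ScarTrace reads out lineage from the GFP locus itself. The libraries came in sets, 1 for each of 6 zebrafish aged 1 year, all carrying 8 copies of an H2A-GFP transgene and all injected at the 1-cell stage with a guide RNA against GFP. Fish R1, R2 and R3 received the guide with Cas9 RNA, and fish P1, P2 and P3 received it with Cas9 protein. Genomic DNA came from small pieces of dissected body structures, so a library mixes the cells of a piece and the transgene copies within each cell, and no tissue is assigned to a barcode here.

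When Cas9 cuts a target, the break is usually closed by end joining, which can leave bases missing. A cut site that is repaired precisely can be cut again, and a changed site is often no longer recognised by the guide. The resulting scar is copied at every division, so that cells with the same rare scar may descend from the same progenitor. After injection of protein cutting starts at once and ends early, whereas Cas9 RNA has to be translated first and is known to act for longer.

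The 130 libraries (58 from Cas9 RNA fish and 72 from Cas9 protein fish) held 2802 to 3198706 reads each and 39500682 scarred reads in all. For 129 of the 130, the scar profile overlapped most with the mean profile of the other libraries of the same fish, with a median overlap of 62.3% of the scarred reads. The exception was the library labelled barcode 24 of fish P1, the deepest of that fish with 2839277 reads. Its overlap was 58.1% with the mean of fish P2 and 24.5% with the rest of fish P1, and with a single library of fish P2 (barcode 17) it was 87.8%. Of the fragmented scars of fish P1, 134 reached 10 reads in that library and 108 did so in no other. For several results that change with it, the values without it are therefore given too, and all others include it.

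In each fish the fragmented scars made up a sizeable part of the scar types but a small part of the reads. Fish R1 kept 386 of them, fish R2 54 and fish R3 87, against 436 in fish P1 (328 without barcode 24), 134 in fish P2 and 310 in fish P3. As a share of all kept scars this was 23.4% in R1, 10.9% in R2 and 14.6% in R3, against 26.9% in P1 (24.2% without barcode 24), 17.2% in P2 and 31.8% in P3. The groups overlapped in both measures. The members averaged 176 ± 183 per fish after Cas9 RNA and 293 ± 152 after Cas9 protein (SD, n = 3 each, exact permutation test, two-sided, p = 0.40, adjusted p = 0.64 over 8 comparisons). Without barcode 24 the Cas9 protein mean was 257 ± 107 (exact permutation p = 0.60). The share of all kept scars averaged 16.3 ± 6.4% after Cas9 RNA and 25.3 ± 7.5% after Cas9 protein (SD, n = 3 each, exact permutation p = 0.20, adjusted p = 0.60). With 3 fish against 3, this test cannot give a p below 0.10.

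Read depth moved with these counts. Within a fish, the number of members per library and the depth of the library had a Spearman rho of 0.90 in R1, 0.67 in R2 and 0.86 in R3, and of 0.91 in P1, 0.78 in P2 and 0.20 in P3, given as a description since the libraries share an animal. When libraries were drawn down to 10000 reads, 115 distinct members were left, with means of 15.7 per fish after Cas9 RNA and 24 after Cas9 protein (exact permutation p = 0.50). Barcode 16 of P1, with 2802 reads, was left out of the draw. The count of members is thus a count at this depth. Between fish, libraries numbered 31 in R1, 13 in R2 and 14 in R3, against 26 in P1, 23 in P2 and 23 in P3. Scarred reads in all were 8876393, 1221515 and 2334190, against 15405490, 6444785 and 5218309. The draw left the number of libraries unequal. Neither the counts nor the shares of members in a single library, given below, were matched for it. Both the depths and the draw included unscarred reads, so the draw did not make scarred depth equal. Barcode 7 of R2 had 473263 scarred reads of 3198706, and barcode 12 of P3 had 1015258 of 1038948.

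The share of scarred reads varied widely between the libraries of a fish. In fish R1 the members took 0.494% of the scarred reads in the lowest library, 1.71% in the median library and 13.1% in the highest, and in R2 0.0994%, 1.34% and 8.72%. The lowest of R2, barcode 13, had 2 member reads among 2013 scarred reads, where a count of 0 would allow up to 0.149%. In R3 the lowest, median and highest library had 0.245%, 0.710% and 5.36%. In fish P1 the share was 0.650%, 3.80% and 7.73%, in P2 0.207%, 1.05% and 7.86%, and in P3 0.773%, 6.60% and 23.6%. In all, 63 of the 130 libraries were below 2%. The highest library of R1 lay well above the next one, at 7.19%. The means over libraries were 2.40 ± 2.52% in R1, 2.69 ± 2.81% in R2 and 1.44 ± 1.65% in R3, against 3.80 ± 1.82% in P1, 1.80 ± 1.96% in P2 and 7.51 ± 5.87% in P3 (SD over 31, 13, 14, 26, 23 and 23 libraries). Between the injections the fish means of 2.18 ± 0.65% and 4.37 ± 2.90% overlapped and did not pass the test (SD, n = 3 each, difference -2.19 percentage points, exact permutation p = 0.30, adjusted p = 0.60). The difference was -0.62 points without P3 and -0.13 points when columns under 1000 reads were counted as libraries.

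**Figure D1:**
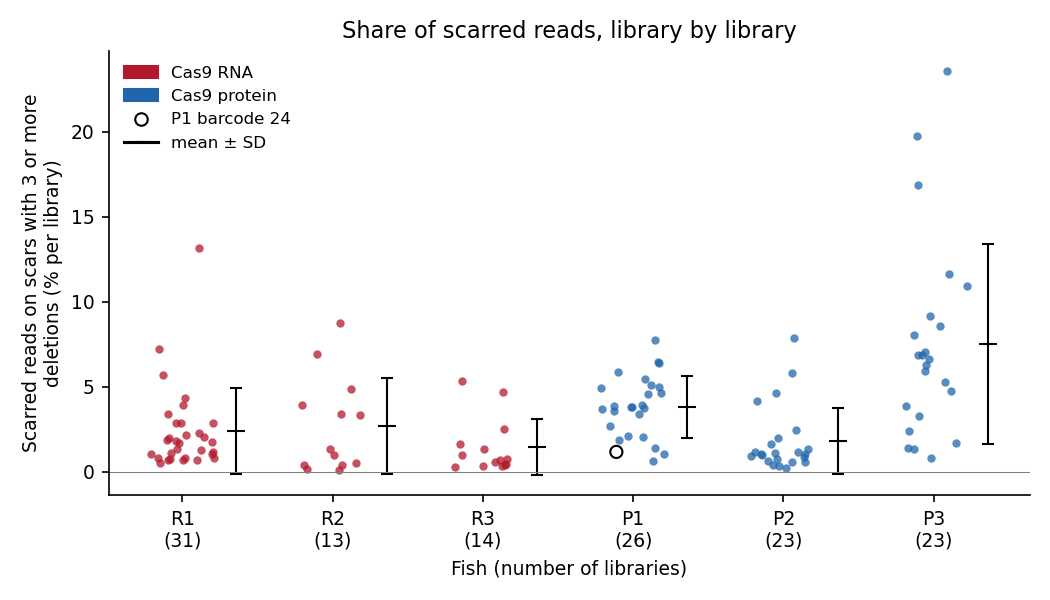
Share of scarred reads that lay on scars with 3 or more deletions and no insertion (y axis, percent), with 1 point per library, by fish (x axis). Bars give the mean ± SD over libraries and the open circle marks barcode 24 of fish P1. Fish P3 reached 23.6% in its highest library, and fish R1 had 1 library at 13.1%.

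Positions are counted from 1 at the first base of the 720 bp of GFP that every alignment spans, and a scar is written as its deleted positions. In barcode 11 of fish R1, the scar 514, 523-524, 529-530 and 542-546 made up 8.03% of the scarred reads (1259 of 15670 reads, Wilson 95% interval 7.62 to 8.47%) and 61.2% of the reads of all members. Over the 31 libraries of that fish its share was 0.0012% at the lowest, 0.0032% at the median and 8.03% at the highest, and 4 libraries were above 1%. It was therefore near 0 in most of the libraries and frequent in a few. Intervals cover counting error only, since reads amplified by PCR without molecular identifiers are not independent molecules.

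The same pattern held for most other leading scars. In fish R2 the scar 487-489, 499-509 and 521-544, which removed 38 bp, had 6.67% of the scarred reads of barcode 14 and 0.317% in the next highest library, with a median of 0.0256%. The other leader of R2, 519-520, 529-538 and 543-544, had 0.0108% in the median library and 4.36% in the highest. In fish R3, 507, 514, 526-531 and 536-541 had 0.0086% in the median library and 4.52% in the highest, and 509-518, 529-530 and 548-549 had 0.0300% and 4.44%. The second leader of R1, 503, 520-521 and 531-546, had 0.0382% and 4.26%. All 6 leading scars of the Cas9 RNA fish thus passed 1% in 1 to 4 libraries, with medians below 0.04%.

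The leading scars of the Cas9 protein fish were mixed in this respect. In fish P1 the scar 516-518, 524-532 and 537-542, which removed 18 bp in frame, was found in 26 of 26 libraries, with 0.0941% at the lowest, 1.28% at the median and 4.87% at the highest. It alone held 48.3% of the member reads of P1 and passed 1% in 18 libraries. Without barcode 24 its lowest share was 0.346% and its median 1.29%, over 25 libraries. Its companion 504, 510-523 and 537-545 was concentrated instead, with a median of 0.0166% and 4.24% in barcode 21. In fish P2 the scar 523-524, 527 and 542-544 held 65.7% of the member reads, with a median of 0.0633% and 7.08% in barcode 18 (35603 of 502765 reads). The second of P2, 518, 541-542 and 548, was low and even, with 0.0341%, 0.180% and 0.437% at the lowest, median and highest of 23 libraries. In fish P3 the scar 524-528, 535, 544-545 and 549 had 0.207%, 2.24% and 10.2%, and 514, 519-520 and 529-538 had 0.0172%, 0.0248% and 7.04%. Among the 2 leaders of each fish, widespread ones were thus seen in P1, P2 and P3 and concentrated ones in every fish. Evenness was not confined to the Cas9 protein fish once members beyond the leaders were counted. In R1 the member 508-514, 523-524 and 528-532 had 0.0325%, 0.106% and 0.576% at the lowest, median and highest of 31 libraries.

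**Figure D2:**
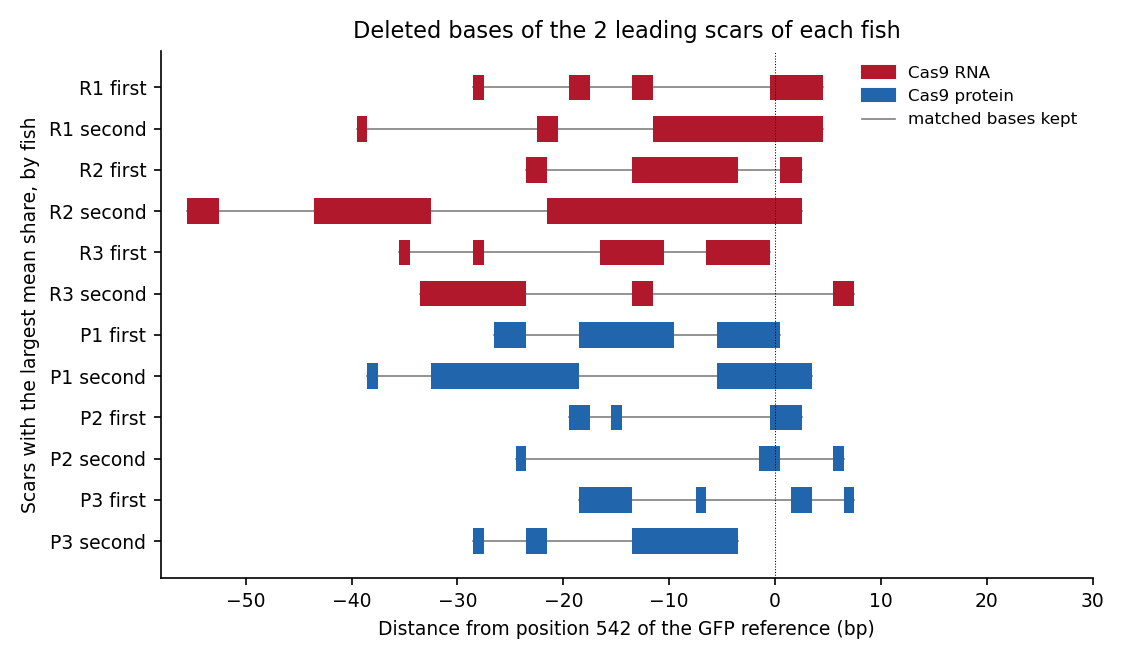
Deleted bases of the 2 scars with the largest mean share in each fish, as filled blocks along the GFP reference (x axis, distance in bp from position 542, dotted line), 1 scar per line (y axis). Grey lines are matched bases kept between the deletions. All 12 scars end within 7 bp of the dotted line and extend to its left, and 10 of the 12 hold a deletion of 1 or 2 bp.

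A few members carried most of the reads in each fish. The member with most reads held 16.95% of the member reads in R1, 41.8% in R2 and 41.8% in R3, against 48.3% in P1, 65.7% in P2 and 33.2% in P3. The 10 leading members together held 65.01% in R1, 92.7% in R2 and 82.97% in R3, against 85.4% in P1, 86.9% in P2 and 68.2% in P3. The remaining members were rare scars, most of them in few libraries. In R1 65.8% of the members reached 10 reads in a single library, in R2 70.4% and in R3 54.02%, against 65.8% in P1 (54.6% without barcode 24), 51.5% in P2 and 45.5% in P3. These shares averaged 63.4 ± 8.4% after Cas9 RNA and 54.3 ± 10.5% after Cas9 protein (SD, n = 3 each, exact permutation p = 0.30, adjusted p = 0.60). Without barcode 24 the Cas9 protein mean was 50.5 ± 4.6% (exact permutation p = 0.20). At the other end, 15 members of fish P3 reached the limit in all of its 23 libraries, against 2 in R1, none in R2 and R3, 1 in P1 and 3 in P2.

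The shape of the members was described without a test, since the called deletions chose them. Of the 1334, 804 had 3 deletions, 382 had 4, 130 had 5, 15 had 6 and 3 had 7. The span between the first and the last deleted base had a median of 35 bp (interquartile range 27 to 43, extremes 9 and 104 bp). Within it a median of 14 bp was missing (interquartile range 9 to 20, extremes 3 and 63 bp), and in each fish the median member kept between 52.6% (R1) and 65.1% (P3) of the bases of its span. The single deletions were short, with a median of 2 bp and a longest of 42 bp, and 1453 of the 4701 deletions (30.9%) removed 1 bp. A deletion of 1 bp was present in 70.1% of the members, with 59.8% in R1 and 89.7% in P3 as the extremes among fish.

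The extreme members had few reads. Of the 3 scars with 7 deletions, all in fish R1 with 16 to 27 reads, the one with most reads was 503-506, 511-512, 517, 523-524, 529, 535 and 538-545, with 19 bp missing. The longest span, 104 bp, belonged to 473, 482-483, 498-500, 504-545 and 576 in fish P1, with 18 reads. The largest loss, 63 bp, belonged to 460, 479-503, 510-535 and 544-554 in fish P1, with 32 reads. None of these scars reached 10 reads in more than 1 library.

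The size of the members was compared between the injections, and the fish of both groups overlapped. The median span per fish was 36 bp in R1, 31 in R2 and 32 in R3, against 35 in P1 (37 without barcode 24), 35 in P2 and 32 in P3 (difference of the means -1.0 bp, exact permutation p = 0.90, adjusted p = 1.0). The median number of missing bases was 15 in R1, 9.5 in R2 and 14 in R3, against 14 in P1 (17.5 without barcode 24), 14 in P2 and 11 in P3 (difference -0.17 bp, exact permutation p = 1.0, adjusted p = 1.0).

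The members of each fish shared a main place of loss. In fish R1 and R3 the base missing from most members was position 537, in 65.5% of them in both fish. In fish R2 positions 537 and 543 were level, each missing from 55.6% of the members. In fish P1 and P2 it was position 542, in 60.8% and 73.9%, and in fish P3 it was position 544, in 79.7%. No test was made of the peaks, as the positions are part of the deletions that chose the members. Losses extended much further to the left of these peaks than to the right in every fish, apart from the separate outlying deletions described next.

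**Figure D3:**
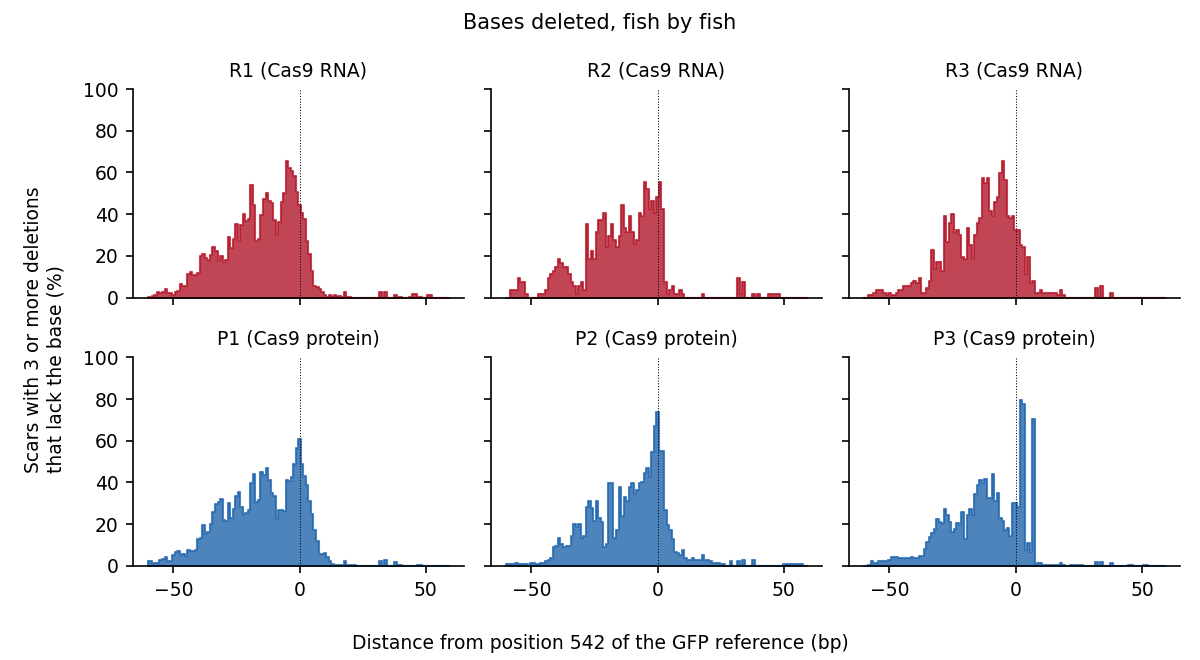
Percent of the fragmented scars of each fish that lack a given base (y axis), against the distance of the base from position 542 of the GFP reference in bp (x axis, dotted line at 0). Losses extend mostly to the left of the dotted line in all 6 fish, and fish P3 shows narrow peaks just to its right that reach 79.7%.

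Some members carried, beside the main cluster, a deletion at position 560 or beyond. There were 39 such members in R1 (10.1% of its members), 11 in R2 (20.4%) and 13 in R3 (14.9%), against 42 in P1 (9.63%), 16 in P2 (11.9%) and 21 in P3 (6.77%). Most of these outlying deletions were of 1 bp, and those at 560, 574, 576 and 580 occurred in members of all 6 fish. Members that ended in such a 1-bp deletion mostly had few reads next to the scar without it. Where that scar was read, their reads were a median of 0.193% of the reads of that scar in R1, 0.170% in R2 and 0.103% in R3, and 0.247% in P1, 0.0789% in P2 and 0.110% in P3. Exceptions reached 3693% in R1, 2000% in P1 and 168% in P3, and for 4 of 32 in R1 and 1 of 15 in P2 that scar had no read. The deletions of 574 and 576 were not confined to members. In R2 they were the only deletion in 8812 and 12986 reads.

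Members with a loss divisible by 3 keep the reading frame of GFP after the last deletion, although the residues between the deletions may still be shifted. Whether a stop codon arises between the deletions was not examined. Of the 1334, 441 (33.1%) were of this kind, 429 (32.2%) left a remainder of 1 and 464 (34.8%) a remainder of 2. In P1 42.9% of the members left a remainder of 1, and 30.5% did so without barcode 24. In-frame members were 35.8% in R1, 37.04% in R2 and 40.2% in R3, against 25.7% in P1 (32.01% without barcode 24), 17.2% in P2 and 40% in P3. The means were 37.7 ± 2.3% after Cas9 RNA and 27.6 ± 11.5% after Cas9 protein and did not pass the test (SD, n = 3 each, exact permutation p = 0.30, adjusted p = 0.60). Of the Cas9 protein fish only P3 overlapped the Cas9 RNA fish. The difference was 10.1 points with all fish and 16.2 without P3 (exact permutation p = 0.10, adjusted p = 0.67). Leaving out each fish in turn gave 4.83 to 16.2 points, and leaving out barcode 24 gave 7.95. Counted by reads instead of by types, in-frame members held 31.8% of the member reads in R1, 48.8% in R2 and 21.9% in R3, against 62.2% in P1, 67.8% in P2 and 55.2% in P3. By reads all 3 Cas9 protein fish lay above all 3 Cas9 RNA fish, the opposite direction to the means by types, and no test was made of it. Except in R1, these shares depended largely on 1 scar per fish. The member with most reads was itself in frame in R2, P1, P2 and P3, and out of frame in R1 and R3. Where in frame, it held 41.8% of all member reads in R2, 48.3% in P1, 65.7% in P2 and 33.2% in P3. Out of frame, it held 16.95% in R1 and 41.8% in R3. In R2 the member was 514, 518-521, 528, 535 and 542-543, with 15725 of its 15889 reads in barcode 7.

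The members were then set against the simpler scars that also lack an insertion but hold only 2 deletions, 728 with at most 10 bp kept between the deletions and 795 with more. Recurrence in other fish matters for lineage tracing, since a scar that arises repeatedly does not mark a single progenitor. Of the members, 1269 (95.1%) were kept in a single fish, 59 in 2 fish, 5 in 3 fish and 1 in 5 fish. The same share over all 4273 kept scars is not given here, so the 95.1% alone does not set members apart. The comparison is with the 2 classes, fish by fish. Members that were also kept in another fish were 4.92% in R1, 12.96% in R2 and 14.9% in R3, against 10.1% in P1, 33.6% in P2 and 3.23% in P3. Of the scars with 2 deletions at most 10 bp apart, 18% in R1, 29.3% in R2, 38.8% in R3, 24.2% in P1, 42.5% in P2 and 23.4% in P3 were kept in another fish. With the deletions more than 10 bp apart these shares were 33.9%, 70.8%, 55.7%, 37.5%, 52.8% and 38.8%, in the same order of fish.

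Members recurred less often than both classes in 6 of 6 fish. A scar recurs only if all of its deletions match, and members were chosen for having more deletions. A lower rate may therefore follow in part from the rule that chose them, and how much does was not tested. The mean difference was -16.1 ± 5.3 percentage points from the nearby pairs and -34.9 ± 13.4 from the distant pairs (SD of the differences, n = 6 fish). In an exact sign-flip permutation test over the 6 fish, each gave p = 0.031, the smallest value the test can give, and adjusted p = 0.094 over the 6 comparisons with these classes, which does not pass 0.05. The 6 values are not independent, since a scar in common counts in both of its fish. Without barcode 24 the differences were -19.1 and -39.5 points, again lower in 6 of 6 fish and with the same exact p. The median read number of a member was between 42.5 (P1) and 81 (P3) over the fish, that of a nearby pair between 36 (R2) and 133 (R3) and that of a distant pair between 35 (R2) and 64 (P1). Members had the lowest median of the 3 classes in R1, R3 and P1 and the highest in R2, P2 and P3. With libraries drawn down to 10000 reads, unscarred reads included, the differences were -14.6 and -12.2 points (exact sign-flip permutation p = 0.22 and 0.094). Among scars without a 1-bp deletion they were -7.93 and -6.11 points (exact p = 0.125 and 0.094), and without scars that had under 0.1 times the reads of a simpler scar they were -17.5 and -12.7 points. The other comparisons with these classes did not pass either. In-frame members differed by -8.23 points from nearby pairs and -1.25 from distant pairs (exact sign-flip p = 0.19 and 0.84). With a limit of 0.1% of reads the first was -21.7 points (exact sign-flip p = 0.031, adjusted p = 0.094). Members in a single library differed by 4.37 and 4.05 points (exact sign-flip p = 0.31 and 0.41).

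**Figure D4:**
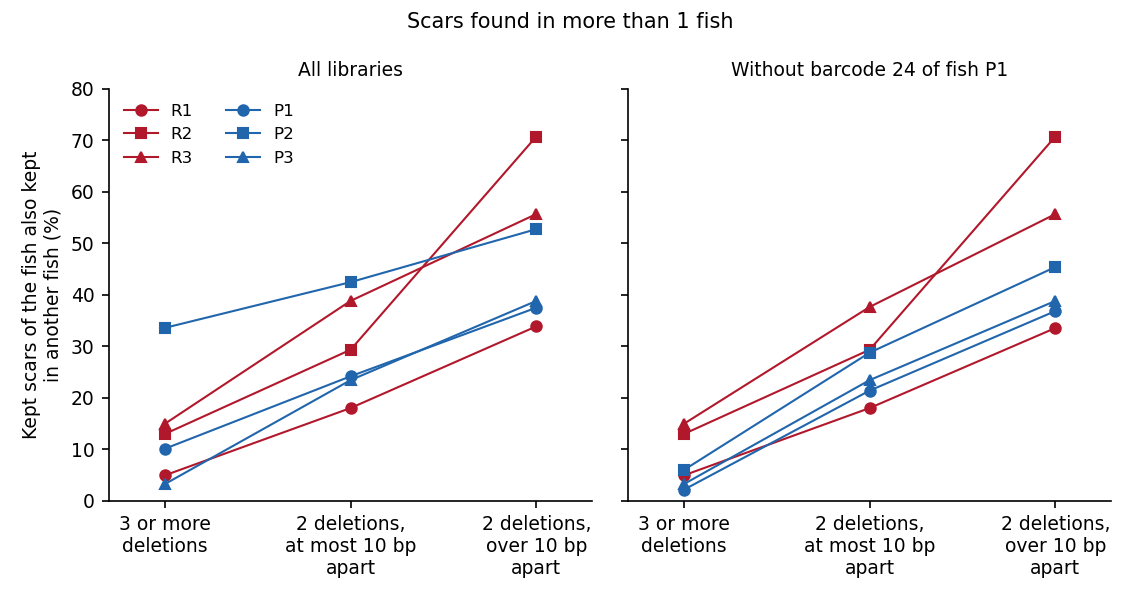
Percent of the kept scars of a fish that were also kept in at least 1 other fish (y axis), for fragmented scars and for the scars with 2 deletions (x axis), with 1 line per fish. The left panel holds all libraries and the right panel leaves out barcode 24 of fish P1. In both panels the fragmented scars are the lowest class in 6 of 6 fish, and P2 is at 33.6% on the left.

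The sharing between fish P1 and P2 rested on barcode 24. These 2 fish had 41 members in common, against 0 to 8 for the other 14 pairs of fish. All 41 reached 10 reads in barcode 24 of P1, and 37 of them did so in no other library of P1. Without that library P1 and P2 had 4 members in common, and members also kept in another fish made up 2.13% of those of P1 and 5.97% of those of P2. Over all fish, 4.87% of the distinct members were kept in more than 1 fish with that library and 2.22% without it.

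The difference between injections in this measure changed direction with the same library. With all libraries, members kept in another fish averaged 10.9 ± 5.3% after Cas9 RNA and 15.6 ± 15.9% after Cas9 protein (SD, n = 3 each, exact permutation p = 0.90, adjusted p = 1.0). Without barcode 24 they averaged 10.9 ± 5.3% and 3.78 ± 1.98% (exact permutation p = 0.20, adjusted p = 0.48).

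The most widely shared member was 514, 519-520 and 529-538, kept in 5 fish. It had 2092 reads in R1, 148 in R2 and 184 in R3, against 271 in P1 and 30221 in P3, and was listed at 0 in P2. Its share in the highest library was 0.300% in R1, 0.119% in R2 and 0.0144% in R3, against 0.0367% in P1 and 7.04% in P3. It was 1 of the 2 leading members in P3 and in no other fish. Of the 5 members kept in 3 fish, the 2 with the largest summed mean share were taken. One of them, 519-520, 529-538 and 543-544, holds the same pair of deletions and was kept in R1, R2 and P2 with 27, 3539 and 12 reads. Below the limit it also had 3 reads in P1 and 10 in P3, and it was listed at 0 in R3. The other, 514, 523-524, 527-530 and 540-542, was kept in the Cas9 protein fish alone, with 237 reads in P1, 639 in P2 and 7297 in P3, and was listed at 0 in R1, R2 and R3.

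Few whole members were kept in more than 1 fish, whereas many of the deletions in them were present in members of several fish. The 1334 members were built of 571 distinct deletions, of which 320 (56.04%) were present in members of at least 2 fish and 32 in members of all 6. Without barcode 24 these were 312 of 567 (55.03%) and 31. The deletion of 523-524 was part of 158 members and the 1-bp deletion of 514 part of 119, both spread over all 6 fish. Counted by types, whole members were thus mostly private to a fish, while the majority of their parts were not. Part of this contrast follows from the counting, since a deletion can lie in many members and 165 of the 571 lay in 1 member only. No expected share was computed.

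Some of these parts were seen only in company. The 1-bp deletion of 514 was the only deletion in 0 of 39500682 scarred reads, which allows a share of up to 7.6e-06%, whereas 170626 reads carried it in members and 161787 in 19 scars with 2 deletions. It was the leftmost deletion in 98 of its 119 members. The 1-bp deletion of 517, part of 49 members, was likewise alone in 0 reads. This was not particular to 514 and 517. Among the most frequent deletions of each fish, every one that ended at or before position 520 was alone in 0 reads of that fish. Examples were 519-520 in R1 and R3 and 518 in P1 and P2. The deletion of 523-524 was alone in 3000 reads, of which 2523 were in P3, against 184998 reads of members. Others also occurred abundantly alone, such as 537-542 with 331254 reads and 544-545 with 397293. Of the 571 deletions, 241 (42.2%) were also kept as a scar of their own.

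A member may differ from a simpler kept scar of the same fish by a single deletion. Such a scar was found for 123 of the 386 members (31.9%) in R1, 17 of 54 in R2 and 33 of 87 in R3, against 176 of 436 in P1 (107 of 328 without barcode 24), 72 of 134 in P2 and 224 of 310 (72.3%) in P3. The reads of members lay on both sides of those of the simpler scars. In R1 53 members, in R2 11 and in R3 18 had fewer than 0.1 times the reads of the simpler scar, against 44 in P1 (35 without barcode 24), 27 in P2 and 101 in P3. These members held 24.5% of the member reads in R1 and 0.975% (P1, 0.589% without barcode 24) to 4.38% in the other fish. An example was 508-514, 523-524 and 528-532 in R1, with 17588 reads against 705004 for 523-524 and 528-532. Its reads were 1.42 to 5.62% of those of the simpler scar over 31 libraries, with a median of 2.39%.

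Other members had at least as many reads as the simpler scar. They numbered 27 in R1, 5 in R2 and 7 in R3, against 59 in P1 (29 without barcode 24), 21 in P2 and 30 in P3. They held 20.9% of the member reads in R1, 69.6% in R2 and 56.7% in R3, against 28.7% in P1, 85.2% in P2 and 72.9% in P3. At least 10 times the reads of the simpler scar was reached by 10 members in R1, 2 in R2 and 2 in R3. In the Cas9 protein fish 18 did so in P1 (9 without barcode 24), 8 in P2 and 4 in P3. The leading scar of P2 had 86814 reads, and the nearest simpler scar, without the deletion of 527, had 18. The leading scar of P1 had no kept simpler scar at all. Members without one held 51.5% of the member reads in R1, 28.1% in R2 and 31.4% in R3, against 69.5% in P1, 9.43% in P2 and 9.20% in P3.

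Fish P3 held many members that share a deletion, here called a family. It is described without a test because the deletion that defines it was chosen for its frequency. Whether its members have a common origin was not tested. Of its 310 members, 215 (69.4%) held a 1-bp deletion of 549, and these carried 75.8% of its member reads. In the other fish 0 to 4 members held that deletion, with 3 in R1, none in R2, 1 in R3, 4 in P1 and none in P2. Within the family 161 members also lacked 544-545 and 48 lacked 541-545. The share of scarred reads on the family was 0.483% in the lowest library of P3, 5.14% in the median and 23.4% in the highest, so that nearly all of the highest library's share lay on it. The deletion of 549 alone was also frequent in P3, with 246848 reads, against 161 to 728 reads in the other fish. In frame were 46.05% of the family and 26.3% of the other 95 members of P3, and 72.6% of the family and 32.6% of the others had 4 or more deletions.

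The abundant members of the family were compared with its leader library by library. The leader of P3, 524-528, 535, 544-545 and 549, had 91774 reads. The family member 523-526, 530, 535, 544-545 and 549 had 10.5 to 14.8% of the leader's reads over the 23 libraries, and 523, 533-534, 541-545 and 549 had 8.47 to 12.4%. For 533-534, 541-545 and 549 the range was 7.77 to 12.8%, and for 535, 544-545 and 549 it was 7.41 to 11.3%. Of the 11 members that followed the leader in reads, 7 belonged to the family, and their ratios varied at most 1.95-fold over the libraries. The other 4 did not follow the leader. The ratio of 514, 519-520 and 529-538 to the leader was 0.168% in its lowest library and 2244% in its highest. Of all members of P3, 56 others of the family and 4 outside it had reads in each of the 23 libraries. Their highest ratio to the leader was a median of 2.97 times the lowest in the family (extremes 1.41 and 16.3), against 38.5 to 13351 times for the 4 outside it.

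**Figure D5:**
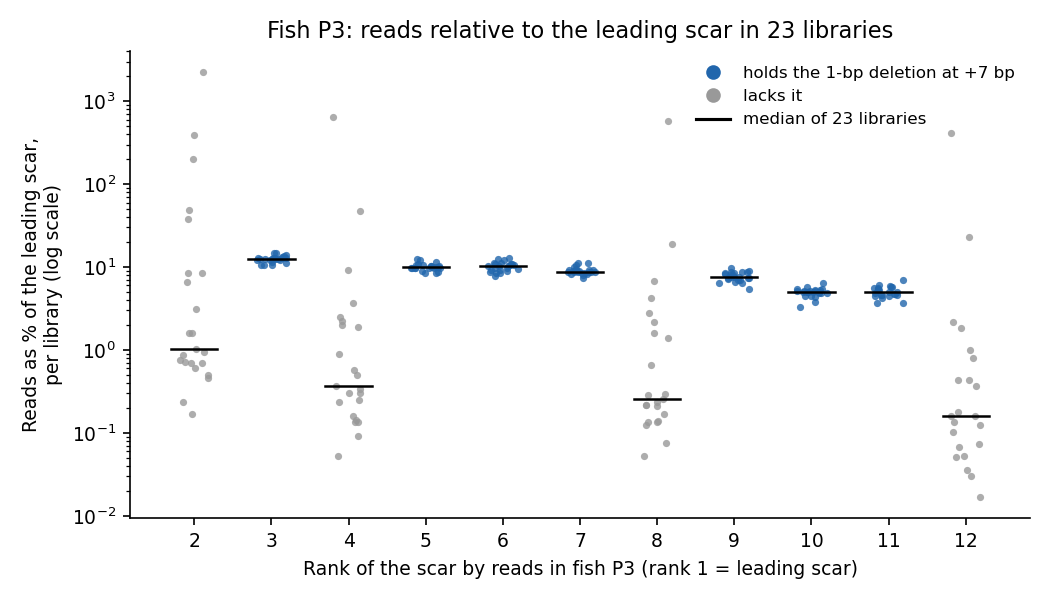
Reads of the 11 members of fish P3 that follow the leading scar (x axis, rank by reads) as a percent of the reads of the leading scar in the same library (y axis, log scale), with 1 point for each of 23 libraries and a line at the median. The 7 blue members hold the 1-bp deletion of position 549, which lies 7 bp right of position 542, and stay within a 1.95-fold range, while grey members lack it and spread widely. For the member of rank 12, 1 library at 0 is not drawn.

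Some members of a fish differed only in how the loss was divided. Members of a fish that had the same first deleted base, last deleted base and number of missing bases, but different deletions between them, numbered 146 in R1, 0 in R2 and 10 in R3, against 175 in P1 (111 without barcode 24), 36 in P2 and 178 in P3. The largest such set, 16 members of P3, ran over 507 to 549 with 15 bp missing. Whether such members stem from 1 underlying scar was not tested.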

How the data were processed

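Scars were measured in 6 fish by targeted sequencing of GFP from genomic DNA. Per the study's methods, scars were mapped by the authors with the Burrows-Wheeler Aligner (version 0.7.16a in the submitters' processing notes). The authors deposited counts, that is, whole numbers of reads for each alignment string and barcode, not normalized and before their noise filter and removal of shared scars. Deletions, spans and frames were read from the alignment strings, which all cover 720 bp, so the placement of a deletion in repeated bases is the aligner's choice.

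A fish was the replicate (n = 3 per injection). Injections were compared by exact permutation of fish means over 20 assignments, and members with scars of 2 deletions by exact sign-flip over 64 patterns, with Benjamini-Hochberg adjustment (8 and 6 comparisons, threshold 0.05). Scars with values were named by a rule: the 2 largest mean shares per fish, the 3 kept in most fish, the private scar in most libraries of a fish, and the extremes of deletion number, span and loss. The members, rule and lists were chosen with earlier results of these data known. The scars of the P3 family beyond its leader, and the single deletions named, were chosen after their values were seen. The list of body structures was not used here, and technical replicas were not summed. Alternatives changed the read limits, the depth, 1-bp deletions and the fish or library left out. The scripts were tested on simulated data. Python 3.11.15, NumPy 2.4.6, pandas 2.3.3 and SciPy 1.17.1 were used.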

Additional observations from a re-analysis of the deposited data

Results flagged for a closer look

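Columns with fewer than 1000 reads were not used as libraries, yet some held reads of members of the same fish. Summed over members and columns, these held 8 member reads for R3, 10 for P1, 4 for P2 and 20 for P3, and 1 for R1 and 2 for R2. A count of 0 allows up to 3 counts, but that limit is no test of such sums. As a share of the scarred reads of those columns, the member reads were 1.02% in R3 (Wilson 95% interval 0.520 to 2.01%), 1.59% in P1 (0.864 to 2.90%), 0.899% in P2 (0.350 to 2.29%) and 5.36% in P3 (3.50 to 8.14%). No member reached 10 reads in any of these columns.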

How the results depend on the processing

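The number of distinct members, 1334, depended on the limits. It was 796 with a limit of 20 reads, 3832 with 3 reads, 109 when a scar needed 0.1% of the reads of a library and 115 after drawing 10000 reads. Of the 214 values recomputed under an alternative, 188 kept direction and side of the threshold, 22 changed sign or became 0 and 4 were these counts. No adjusted p fell below 0.05 under any alternative. The tests between injections could not have done so, as their p cannot be below 0.10. Nor could the paired tests with a fish left out. Over all 6 fish the paired tests could do so only with several comparisons at their smallest p. The side of the threshold was therefore no measure of stability for most of these values. Members recurred less often than both classes of scars with 2 deletions under all alternatives run. Several small differences changed sign. Between injections (Cas9 RNA minus Cas9 protein), the median missing bases differed by -0.17 bp, and by 2.17 at 0.1% of reads, 2.67 at 10000 reads, 0.67 at 20 reads and 0.33 both at 3 reads and without scars under 0.1 times a simpler scar. The median span differed by -1.0 bp, by 3.83 at 0.1% and by 3.5 at 10000 reads. In-frame members minus distant pairs was -1.25 points, and 0.889 at 0.1%, 3.05 without 1-bp deletions and 6.44 without scars under 0.1 times a simpler scar. Single-library members minus distant pairs was 4.05 points, and -2.21 at 0.1%, -6.81 at 10000 reads and -2.99 without 1-bp deletions. Sharing between injections was -4.69 points, and 7.17 without barcode 24. Leaving out a fish in turn gave -11.9 to 8.78 for sharing, positive without P1 or P2, -5.24 to 1.32 for in-frame members against distant pairs, -1.25 to 1.5 bp for missing bases and -2.5 to 0 bp for span. For the share of scarred reads the range was -3.48 to -0.62 points, and with all columns it was -0.13. The causes were not tested. The numbers of the fish do not pair animals, and with the number as a replicate block the share of scarred reads kept its difference of -2.19 points (exact sign-flip permutation p = 0.50). The limits relative to simpler scars, the median over libraries and the omission of barcode 24 were added after seeing the data. The shallowest library held 1842 scarred reads, so a member with no reads there could reach 0.163%.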
